A study of Mus musculus with 12 samples.

Results

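Cytokinesis and central spindle genes were followed in cardiomyocytes with the question of cell division against binucleation in view. Their mRNA levels alone do not tell these outcomes apart, and nuclei per cell were not counted here. The set was chosen by gene symbol and holds 10 genes (Ect2, Anln, Cit, Racgap1, Kif23, Prc1, Kif20a, Kif14, Aurkb and Cep55) of the 24421 genes counted. All 10 were found, and all 10 passed the filter on low counts that left 12252 genes for testing. Several of them, Racgap1, Anln, Ect2 and Prc1 among them, also stand among the cell cycle genes that the study picked from these same libraries, so their direction here is not independent evidence.

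The RNA-seq covered 12 libraries of cardiomyocytes from mouse hearts of CD1 background at postnatal day 1. Glut1 transgenic (Glut1 tg) hearts carried human GLUT1 under the αMHC promoter together with αMHC-Cre and a heterozygous R26 YFP reporter, and gave 4 Tnnt2low and 4 Tnnt2high libraries. WT hearts, labelled only as wild type but described by the study as αMHC-Cre with the YFP reporter, gave 2 Tnnt2low and 2 Tnnt2high libraries. Cre and reporter, which mark cells of the cardiomyocyte lineage, are thus shared by both genotypes according to the study, and the transgene acts in cardiomyocytes because the αMHC promoter drives it there. The labels name the populations by their Mitotracker signal, which reports mitochondria, and Mitotracker high was read as Tnnt2low and Mitotracker low as Tnnt2high, the pairing the study uses. Each Glut1 tg replicate was 1 heart that gave both populations. The WT libraries are numbered in the same way, but both numbers begin with the same heart number, so they may come from 1 heart and their spread may be technical.

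Cytokinesis divides the cytoplasm after the chromosomes have been separated. The central spindle, a bundle of antiparallel microtubules between the separating chromosomes, marks the division plane, activates the GTPase RhoA there and so places a contractile ring of actin and myosin, and the bridge that is left is cut at the midbody. Rodent cardiomyocytes in the first days after birth often separate their chromosomes without completing this step, which leaves binucleated cells. Most of these genes are transcribed mainly in G2 phase and mitosis, so that their mRNA levels in a bulk library follow the number of cycling cells as well as the level per cell, and fewer cells of a type and less RNA per cell cannot be told apart.

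Genes of this class often carry the cell cycle genes homology region, CHR, near the transcription start, where the MuvB-containing complexes that repress or activate mitotic genes bind. The motif TTTGAA was therefore searched on both strands in the RefSeq promoter table (GRCm38.p6, 250 bases before to 50 bases after each start), together with CCAAT, the NF-Y motif that frequently accompanies it. The table held 8 of the 10 genes, and in the first listed entry of 6 of these 8 TTTGAA lay within 50 bases of the start, against 4.94% of all 32851 promoters in the table. Its first base lay between base -5 in Prc1 and base 40 in Ect2, counted from the first transcribed base as 1. CCAAT was present in the 300 bases of 5 of the 8 genes, against 37.4% of all promoters. Kif14 had TTTGAA only farther upstream, and the window of Cit held none. The 30 bases around the motif are shown for these 6 genes because they are the letters the genes have in common, with TTTGAA (or TTCAAA, its reverse complement) and CCAAT (or ATTGG) in capitals. A match is a description of the letters and was not tested for binding.
Ect2 (chr3:27153829-27153858, - strand): gagagagcgactggattttTTTGAAtcgga
Anln (chr9:22389173-22389202, - strand): cgtccggggcgctgaaaTTCAAAtTTTGAA
Racgap1 (chr15:99651639-99651668, - strand): ATTGGctggtgcgtgatTTTGAAccggatc
Kif23 (chr9:61946785-61946814, - strand): ggccgctgATTGGcctgTTTGAAatgcgcc
Prc1 (chr7:80294429-80294458, + strand): caccgcctctggctcggTTTGAAttccgcg
Cep55 (chr19:38054991-38055020, + strand): gccctacagccgcgggaTTCAAActcccgg
In Racgap1 and Kif23 both motifs fell inside the 30 bases shown, with ATTGG upstream of TTTGAA. Anln held the motif once on each strand, separated by a single base.

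Reads in genes ranged from 4065306 to 9815069 per library. Tnnt2, cardiac troponin T, stood at 13420 ± 632 CPM in Glut1 tg Tnnt2low and 17956 ± 2275 CPM in Glut1 tg Tnnt2high libraries (SD, n = 4 each), and at 16236 ± 699.5 and 16728 ± 669.6 CPM in WT Tnnt2low and WT Tnnt2high libraries (SD, n = 2 each). Slc2a1, the mouse gene for Glut1, stood at 73.1 ± 20.1 CPM in Glut1 tg Tnnt2low against 21.8 ± 8.37 CPM in WT Tnnt2low libraries, and at 63.4 ± 25.5 CPM in Glut1 tg Tnnt2high against 21.1 ± 11.03 CPM in WT Tnnt2high libraries. Whether reads of the human transgene were counted there was not tested. All 10 cardiomyocyte markers were detected in all 4 groups, with a summed level of 126029 to 158693 CPM in Glut1 tg Tnnt2low and 139487 to 146941 CPM in Glut1 tg Tnnt2high libraries. Of these 10 markers, 4 fell and 1 rose in Glut1 tg Tnnt2low against Tnnt2high cells by the rule given below. By that rule 8.33% of all tested genes fell and 8.42% rose. Log2 fold changes were -0.42 for Tnnt2, -0.82 for Tnni3, -0.72 for Tnnc1 and -0.86 for Myl3, and 0.61 for the calcium channel gene Ryr2. The 5 not called were Myh6 (0.19), Ttn (0.20), Actn2 (-0.03), Actc1 (-0.32) and Pln (-0.38). Of the 10 markers 7 thus had a negative and 3 a positive value, with a median of -0.35 against -0.01 over all tested genes. The part of transcript length in these values was not tested. Ddx3y, a Y-linked gene, had 56.4 to 65.2 CPM in both libraries of Glut1 tg replicates 2 and 4 and at most 0.508 CPM in the other libraries, so that the Glut1 tg groups held hearts of both sexes and no WT library read it. Per read in a gene, 0.886 to 1.07 reads lay outside every exon in Glut1 tg Tnnt2low and 2.26 to 2.63 in Glut1 tg Tnnt2high libraries, without overlap, against 1.13 to 1.495 in WT Tnnt2low and 1.51 to 1.83 in WT Tnnt2high libraries.

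In Glut1 tg hearts, the cytokinesis genes as a group were more abundant in Tnnt2low than in Tnnt2high cardiomyocytes. Of the 10 genes, 8 rose and none fell, with changes of 1.69-fold for Cep55 to 3.08-fold for Kif14 among those called, and Cit and Aurkb did not pass the threshold. A gene was called at a Benjamini-Hochberg adjusted p under 0.05 over all tested genes in edgeR's quasi-likelihood test, a rule by which 8.42% of all tested genes were called higher in this comparison. The median log2 fold change was 1.18 over the 10 genes and -0.01 over all tested genes. The summed level of the 10 genes was 548, 646, 324 and 247 CPM in replicates 1 to 4 of Glut1 tg Tnnt2low and 211, 174, 213.5 and 165 CPM in Glut1 tg Tnnt2high libraries. The sums did not overlap, and replicates 1 and 2 of the Tnnt2low cells lay far above replicates 3 and 4. CPM are counts per 1000000 reads of the library size after scaling by the TMM method of edgeR.

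**Figure D1:**
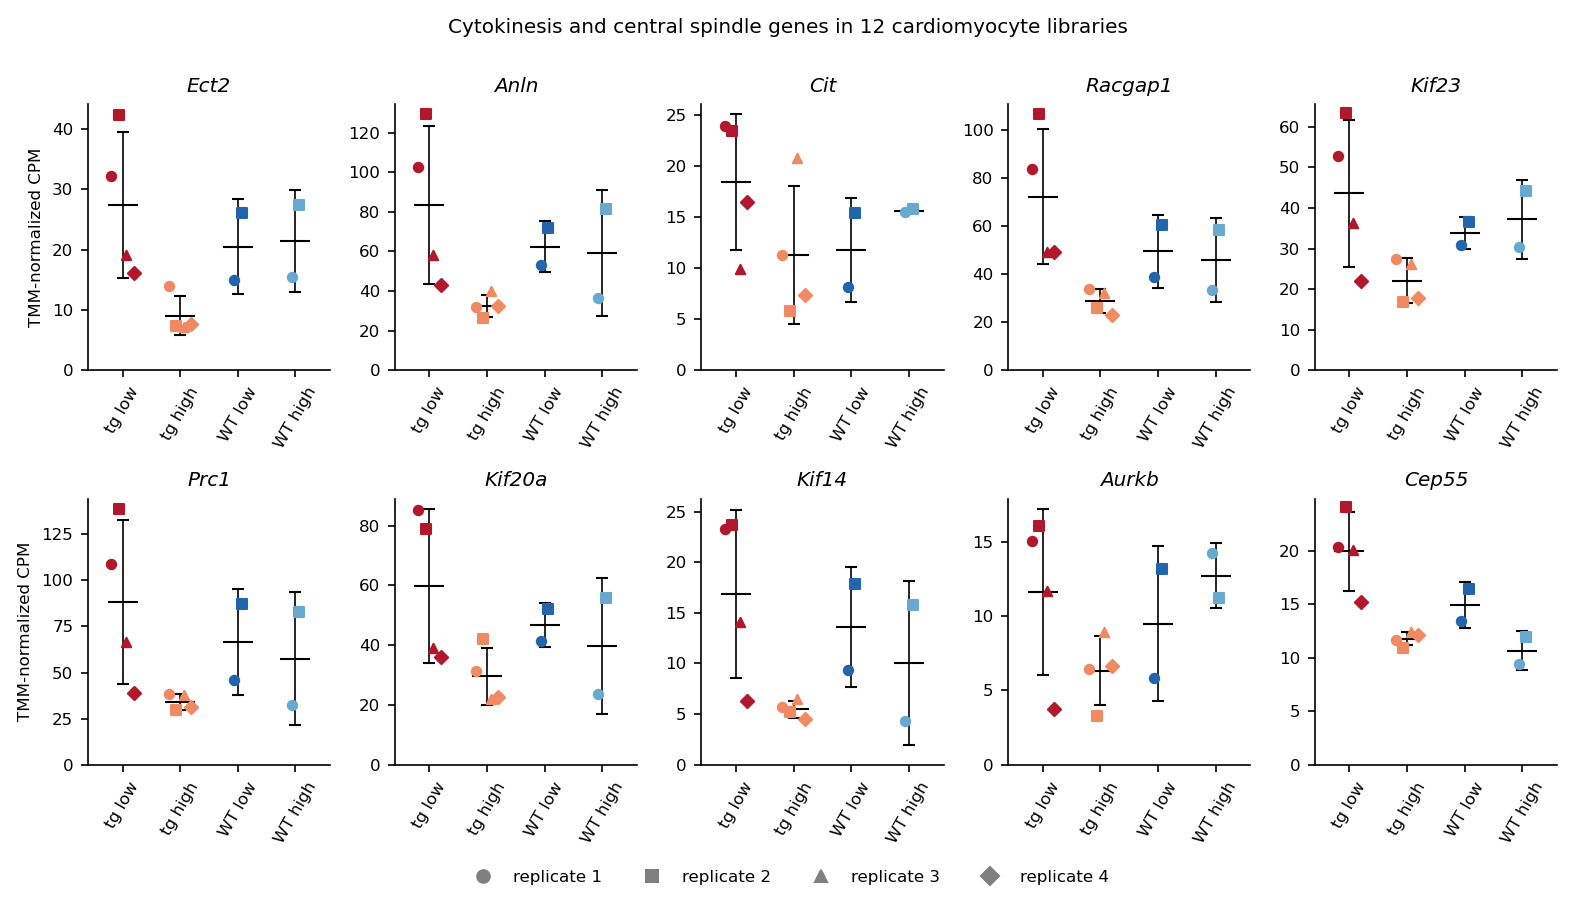
Levels of the 10 genes in TMM-normalized CPM (vertical axes from 0) in Glut1 tg Tnnt2low, Glut1 tg Tnnt2high, WT Tnnt2low and WT Tnnt2high libraries, with 1 point per library, its shape giving the replicate, and black bars for the mean ± SD. Replicates 1 and 2 of Glut1 tg Tnnt2low held the 2 highest values of the 12 libraries for every one of the 10 genes.

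Ect2 encodes the exchange factor that loads RhoA with GTP at the division plane, and lies on chromosome 3 of mm10 from 27097222 to 27153878. It had 32.1, 42.3, 19.0 and 16.1 CPM in Glut1 tg Tnnt2low libraries, against 13.9, 7.39, 7.19 and 7.59 CPM in Glut1 tg Tnnt2high libraries. Every Tnnt2low library lay above every Tnnt2high library, although Tnnt2high replicate 1 stood close to Tnnt2low replicate 4. The log2 fold change was 1.59 (SE 0.35, adjusted p = 0.008 in edgeR), or 3.01-fold. In WT hearts Ect2 had 14.9 and 26.02 CPM in Tnnt2low and 15.5 and 27.5 CPM in Tnnt2high libraries, so that the replicates differed more than the populations.

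Anln, anillin, is the scaffold that ties RhoA, actin, myosin and septins together in the contractile ring, and lies on chromosome 9 from 22332012 to 22389188. Its levels were 103, 129, 58.4 and 43.0 CPM in Glut1 tg Tnnt2low libraries, against 31.7, 26.3, 39.9 and 32.3 CPM in Glut1 tg Tnnt2high libraries. The groups did not overlap, with a log2 fold change of 1.36 (SE 0.32, adjusted p = 0.0106). WT Tnnt2low libraries had 53.2 and 71.6 CPM and WT Tnnt2high libraries 36.5 and 81.5 CPM, with both Tnnt2low values inside the span of the Tnnt2high values.

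Cit encodes citron kinase, which acts downstream of RhoA in the ring and midbody, as well as shorter citron forms without the kinase domain, and counts per gene do not separate them. The gene lies on chromosome 5 from 115845278 to 116008947. It had 23.9, 23.5, 9.90 and 16.5 CPM in Glut1 tg Tnnt2low libraries, against 11.3, 5.75, 20.8 and 7.36 CPM in Glut1 tg Tnnt2high libraries. Replicate 3 went the other way from the other replicates, and the log2 fold change of 0.70 (SE 0.38) did not pass the threshold (adjusted p = 0.228). WT libraries had 8.19 and 15.4 CPM in Tnnt2low and 15.5 and 15.8 CPM in Tnnt2high cells.

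Racgap1 and Kif23 encode the 2 subunits of centralspindlin, the GTPase-activating protein and the kinesin that bundle central spindle microtubules and recruit Ect2. Racgap1, on chromosome 15 from 99620496 to 99651656, had 83.6, 107, 49.1 and 49.4 CPM in Glut1 tg Tnnt2low libraries, against 33.9, 26.01, 32.0 and 23.0 CPM in Glut1 tg Tnnt2high libraries. Its groups did not overlap, and with a log2 fold change of 1.33 (SE 0.27, adjusted p = 0.00572) it had the smallest p of the 10 genes. Kif23, on chromosome 9 from 61915905 to 61946774, had 52.8, 63.3, 36.3 and 22.0 CPM in Glut1 tg Tnnt2low libraries, against 27.4, 16.7, 26.3 and 17.8 CPM in Glut1 tg Tnnt2high libraries. Tnnt2low replicate 4 fell inside the range of the Tnnt2high libraries, and the log2 fold change was 0.98 (SE 0.29, adjusted p = 0.031). In WT hearts Racgap1 had 38.7 and 60.3 CPM in Tnnt2low and 33.4 and 58.2 CPM in Tnnt2high libraries. Kif23 had 31.0 and 36.6 CPM in WT Tnnt2low and 30.4 and 44.2 CPM in WT Tnnt2high libraries. Both subunits thus overlapped between the WT populations.

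Prc1 encodes the protein that crosslinks antiparallel microtubules in the central spindle, and lies on chromosome 7 from 80294450 to 80316259. It was the most abundant of the 10 per length of transcript in every group. It had 109, 139, 66.5 and 38.6 CPM in Glut1 tg Tnnt2low libraries, against 38.1, 29.8, 37.7 and 31.1 CPM in Glut1 tg Tnnt2high libraries. The groups stood apart only narrowly, with Tnnt2low replicate 4 just above the highest Tnnt2high library, and the log2 fold change was 1.37 (SE 0.36, adjusted p = 0.0188). WT Tnnt2low libraries had 46.2 and 87.0 CPM and WT Tnnt2high libraries 32.2 and 82.9 CPM. Exons of Prc1 overlap 911 bases of exons of Rccd1 on the other strand, and whether the counting used strand is not given in the sources used here. Rccd1 itself read 1.90 to 4.35 CPM in Glut1 tg Tnnt2low and 3.08 to 6.20 CPM in Glut1 tg Tnnt2high libraries, well below Prc1.

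Kif20a and Kif14 are kinesins of the central spindle and midbody: Kif20a carries the chromosomal passenger complex to the central spindle, and Kif14 binds Prc1 and citron kinase. Kif20a, on chromosome 18 from 34624613 to 34633277, had 85.2, 78.9, 39.0 and 36.1 CPM in Glut1 tg Tnnt2low libraries, against 31.3, 42.2, 21.8 and 22.8 CPM in Glut1 tg Tnnt2high libraries. The second Tnnt2high replicate lay above Tnnt2low replicates 3 and 4, and the log2 fold change of 1.02 (SE 0.33, adjusted p = 0.0436) was the nearest to the threshold among the genes called. Its exons overlap those of Cdc23 on the other strand over 1271 bases, and 25.2% of the 50-base words of its transcripts also occur in Cdc23, so that reads of the 2 genes may not be fully separated. Cdc23 had 41.9 to 46.5 CPM in Glut1 tg Tnnt2low and 20.6 to 51.9 CPM in Glut1 tg Tnnt2high libraries. Kif14, on chromosome 1 from 136466343 to 136531511, had 23.2, 23.7, 14.1 and 6.27 CPM in Glut1 tg Tnnt2low libraries, against 5.65, 5.20, 6.45 and 4.51 CPM in Glut1 tg Tnnt2high libraries. Its log2 fold change was the largest of the 10 at 1.62 and also the least precise (SE 0.45, adjusted p = 0.0246), and Tnnt2low replicate 4 lay inside the Tnnt2high range. In WT hearts Kif20a had 41.5 and 52.0 CPM in Tnnt2low and 23.6 and 55.7 CPM in Tnnt2high libraries. Kif14 had 9.38 and 17.8 CPM in WT Tnnt2low and 4.28 and 15.8 CPM in WT Tnnt2high libraries, an overlap in both cases.

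Aurkb encodes Aurora B, the kinase of the chromosomal passenger complex, which moves from centromeres to the central spindle at anaphase, and lies on chromosome 11 from 69045647 to 69051664. It had 15.0, 16.1, 11.7 and 3.71 CPM in Glut1 tg Tnnt2low libraries, against 6.46, 3.29, 8.93 and 6.64 CPM in Glut1 tg Tnnt2high libraries. Tnnt2low replicate 4 was below all but 1 of the Tnnt2high libraries, and the log2 fold change of 0.87 (SE 0.43) did not pass the threshold (adjusted p = 0.187). WT Tnnt2low libraries had 5.81 and 13.2 CPM and WT Tnnt2high libraries 14.3 and 11.2 CPM. The counts behind these values were the lowest of the set, 12 to 157 reads per library.

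Cep55 encodes the midbody protein that recruits the ESCRT machinery for abscission, the final cut, and lies on chromosome 19 from 38055011 to 38074423. It had 20.4, 24.1, 20.1 and 15.2 CPM in Glut1 tg Tnnt2low libraries, against 11.7, 10.95, 12.4 and 12.1 CPM in Glut1 tg Tnnt2high libraries. These groups did not overlap and had the smallest spread of the 10 genes relative to their means in both groups, with a log2 fold change of 0.76 (SE 0.21, adjusted p = 0.026). Cep55 also had the smallest change among the 8 genes called. WT Tnnt2low libraries had 13.4 and 16.5 CPM and WT Tnnt2high libraries 9.37 and 11.98 CPM, so that Cep55 was the only one of the 10 with both WT Tnnt2low libraries above both WT Tnnt2high libraries, and Cit the only one with both below. Of all tested genes 15.3% had both above and 14.9% both below, so that 1 of 10 each way is no more than the background.

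Of the 10 genes, 5 (Ect2, Anln, Racgap1, Prc1 and Cep55) had every Glut1 tg Tnnt2low library above every Glut1 tg Tnnt2high library, as did 11.2% of all tested genes. Levels per kilobase of the longest annotated transcript allowed the genes to be ordered in Glut1 tg Tnnt2low cells. Prc1 led with 24.2 ± 12.2 CPM per kb (SD, n = 4), and Anln followed with 18.1 ± 8.64 CPM per kb. Kif20a, Racgap1 and Kif23 came next at 16.3 ± 7.04, 16.1 ± 6.28 and 12.8 ± 5.35 CPM per kb. Cep55, Ect2 and Aurkb stood at 7.23 ± 1.33, 6.71 ± 2.97 and 5.95 ± 2.87 CPM per kb, and Cit and Kif14 at 1.94 ± 0.697 and 1.88 ± 0.929 CPM per kb. Neighbours in this order differed by less than the larger SD of the pair, apart from the steps between Kif23 and Cep55 and between Aurkb and Cit.

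Within single Glut1 tg hearts the genes moved in the same direction, but by unequal amounts. The median of the 10 differences in log2 CPM, Tnnt2low minus Tnnt2high, was 1.24, 2.07, 0.65 and 0.43 in hearts 1 to 4, while the median over all tested genes was between 0.00 and 0.03. All 10 genes were higher in the Tnnt2low library of hearts 1 and 2, all but Cit in heart 3 and all but Aurkb in heart 4. In the WT pairs the median differences were 0.36 and 0.01, with 7 and 5 of the 10 genes higher in the Tnnt2low library. For Ect2 the differences were 1.19, 2.47, 1.37 and 1.06 in the Glut1 tg hearts against -0.06 and -0.08 in the WT pairs.

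**Figure D2:**
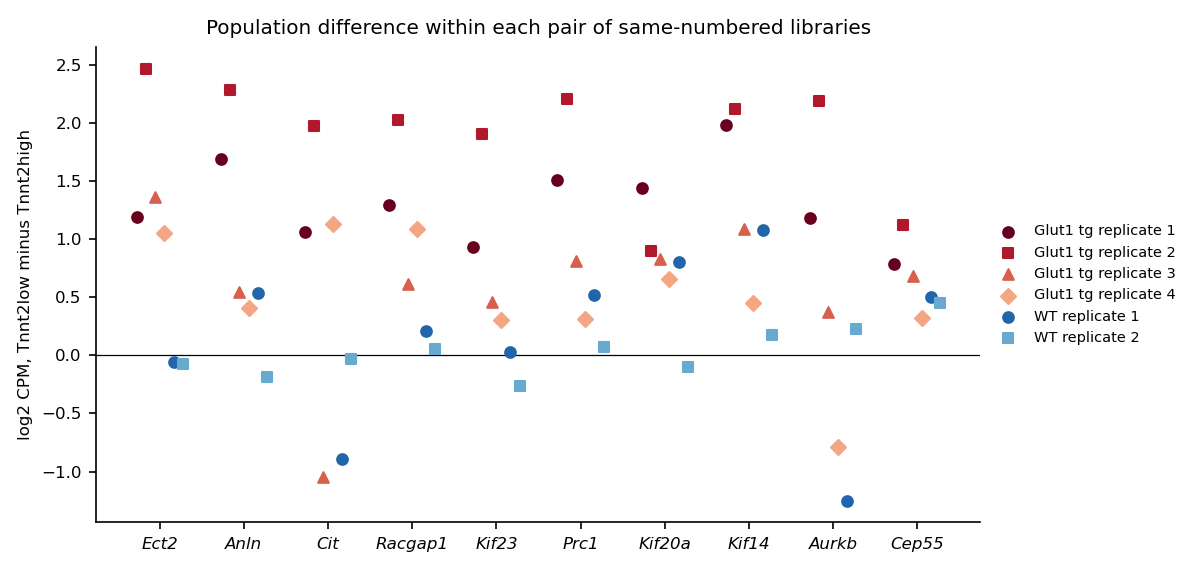
Difference in log2 CPM between the Tnnt2low and Tnnt2high libraries of the same number (vertical axis, above 0 where Tnnt2low is higher), for each of the 10 genes, with red points for the 4 Glut1 tg hearts and blue points for the 2 WT pairs. Heart 2 had the largest median difference, 2.07, and the largest difference for each gene except Kif20a (0.90, against 1.44 in heart 1), and the WT pairs lay around 0 with medians of 0.36 and 0.01.

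The strength of this comparison rested on few hearts. When a single Glut1 tg library was left out, 3 to 9 of the 10 genes were called, with 3 (Anln, Ect2 and Racgap1) in the absence of Tnnt2low replicate 1 or of Tnnt2low replicate 2, 4 without Tnnt2high replicate 2, 5 without Tnnt2high replicate 1 or 4 and 9 without Tnnt2low replicate 4. Leaving out both libraries of a heart left 2 genes (Ect2 and Racgap1) without heart 1, none without heart 2 (smallest adjusted p = 0.0553), 5 without heart 3 and 7 without heart 4. All 10 log2 fold changes stayed positive in each of these fits.

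Transcript length and library composition moved with the same comparison. Across 12191 tested genes, the log2 fold change between Glut1 tg Tnnt2low and Tnnt2high cells had a Spearman correlation of 0.51 with transcript length, a description across genes of the same 8 libraries. With the genes in 4 equal bins of transcript length, 24.8% were called higher in the longest bin (median 6502 bases), against 6.93%, 1.64% and 0.328% in the next shorter bins (medians 4152, 2879 and 1583 bases), and the 10 genes ran between 1950 and 9514 bases with a median of 3880. With length and GC content taken up as an offset in the fit, Ect2, Racgap1 and Cep55 were called (adjusted p = 0.0281, 0.0367 and 0.0395), the median log2 fold change of the 10 was 1.15, and Anln and Prc1 reached adjusted p = 0.0547 and 0.0562. With the offset and the pairing by heart in 1 fit, 7 were called. With reads outside exons as a covariate none was called (all adjusted p = 0.9997 in edgeR), with a median log2 fold change of 2.24, and since these reads separate the 2 Glut1 tg populations without overlap, their part and that of the population cannot be told apart. Summed endothelial markers were lower in Tnnt2low, 10.04 to 91.4 against 37.9 to 301 CPM, with a negative fold change for all 10 and none called. Summed fibroblast and matrix markers were also lower, 54.5 to 104 against 155 to 917 CPM. Of these 10, 6 fell, against 8.33% of all tested genes, and 1, Fbln1, had a positive value (0.17, not called). Of 9 tested smooth muscle and pericyte markers 2 rose (Cspg4 and Abcc9) and 2 fell (Pdgfrb and Notch3). Of 3 tested epicardial markers 1 fell, Aldh1a2. Erythroid markers summed to 0.765 to 3.84 CPM in Glut1 tg Tnnt2low against 0 to 2.85 CPM in Glut1 tg Tnnt2high libraries, and reached 25.9 CPM in WT Tnnt2low replicate 1. The hemoglobin genes among them were listed at 0 in all 4 groups, and whether the counting could read them was not tested. Leukocyte markers summed to 2.05 to 5.97 CPM in Glut1 tg Tnnt2low against 1.98 to 9.28 CPM in Glut1 tg Tnnt2high libraries. The part of these markers in the result was not tested.

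In WT hearts no difference in the cytokinesis genes between Tnnt2low and Tnnt2high cardiomyocytes was detected with 2 libraries in each. Of the 10 genes none was called, nor was any of the 12252 genes tested (0%, with 381 at an unadjusted p under 0.05 in edgeR and 3 called by DESeq2). With the replicate number as a block, 2 genes were called and none of them was one of the 10. Cep55 had the largest log2 fold change, 0.48 (95% interval -0.16 to 1.12), followed by Kif14 at 0.42 (-0.87 to 1.71), and Aurkb and Cit had the lowest at -0.42 (-1.69 to 0.85) and -0.40 (-1.55 to 0.74). All 10 intervals included 0, among them those of Anln, -0.86 to 1.01, Racgap1, -0.69 to 0.90, and Ect2, -1.08 to 0.93. The median over the 10 genes was 0.09. The second replicate was higher than the first for all 10 genes in WT Tnnt2low and for 9 of the 10 in WT Tnnt2high libraries, with summed levels of 262 and 396 CPM in Tnnt2low and 215 and 405 CPM in Tnnt2high cells.

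The population difference was then compared between genotypes as an interaction in the same fit. All 10 values were positive, from 0.28 for Cep55 to 1.67 for Ect2, with a median of 1.19. None passed the threshold (adjusted p of at least 0.961 in edgeR), as was the case for all tested genes (0%, with 554 at an unadjusted p under 0.05 and 5 called by DESeq2). Ect2 (1.67, 95% interval 0.41 to 2.92), Anln (1.28, 0.13 to 2.44), Racgap1 (1.22, 0.24 to 2.20) and Kif23 (1.12, 0.08 to 2.17) had unadjusted p of 0.0126, 0.0317, 0.0181 and 0.0361. A difference between the genotypes in how the populations differ was thus not shown for any of the 10 genes.

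**Figure D3:**
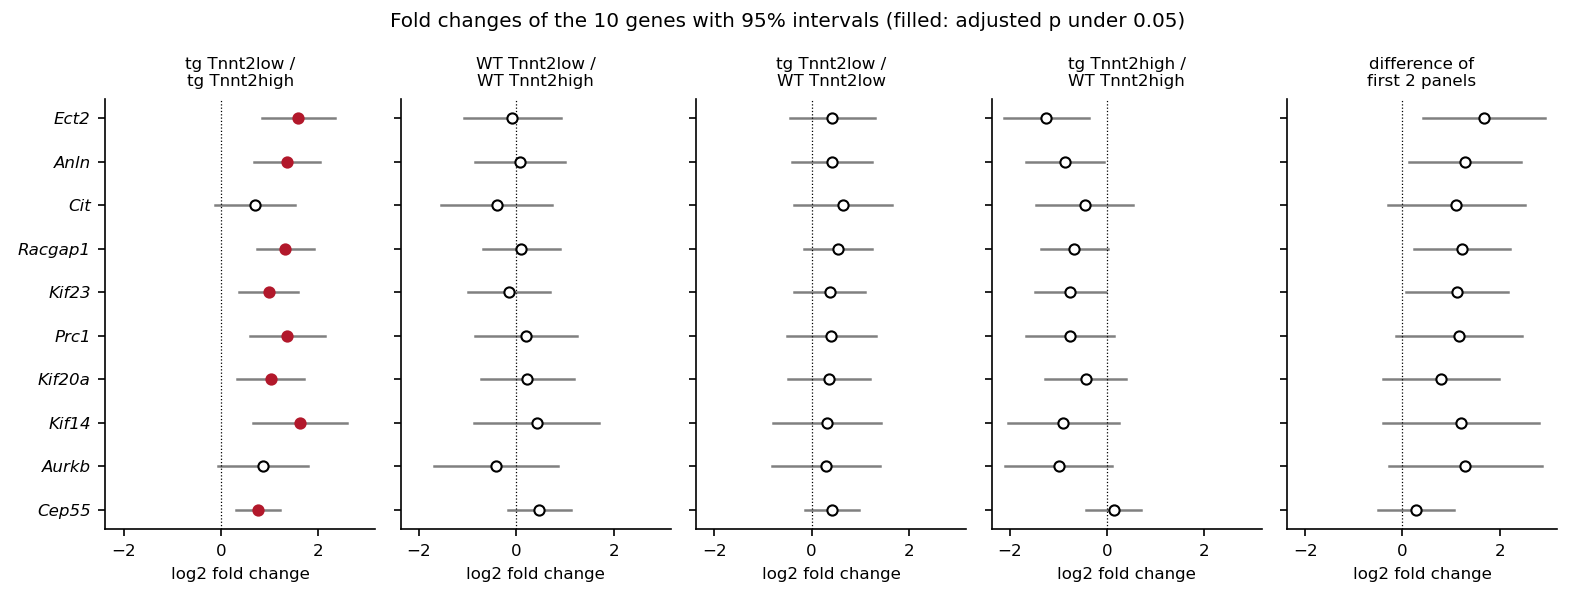
Fitted log2 fold changes of the 10 genes (horizontal axes) with 95% intervals as bars, in the 4 comparisons between groups and in the interaction, which is the difference of the first 2 panels. Filled points passed an adjusted p under 0.05, which 8 genes did for Glut1 tg Tnnt2low against Glut1 tg Tnnt2high cells and none in the other 4 panels.

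Between genotypes, the fitted levels of all 10 cytokinesis genes were above WT in Glut1 tg Tnnt2low cells, with libraries that overlapped between the genotypes for each gene. The log2 fold changes ran from 0.30 for Aurkb to 0.65 for Cit with a median of 0.41, and none of the 10 was called (all adjusted p = 1 in edgeR, which called 0.00816% of all tested genes). None of the 10 genes had every Glut1 tg library above both WT libraries, whereas 5.39% of all tested genes had every Glut1 tg library above both WT libraries. The widest interval was that of Kif14, -0.80 to 1.42, and the narrowest that of Cep55, -0.13 to 0.97. In Glut1 tg hearts without Ddx3y, which leaves replicates 1 and 3 against WT, all 10 values were again positive, with a median of 0.42 and none called.

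In Tnnt2high cells the order was turned round, with lower levels in Glut1 tg than in WT hearts for all but Cep55, again with none called (adjusted p from 0.899 in edgeR, which called 0% of all tested genes, with 650 at an unadjusted p under 0.05 and 5 called by DESeq2). The median log2 fold change was -0.76. Ect2 had the largest difference at -1.25 (95% interval -2.12 to -0.37, unadjusted p = 0.0085), and Kif23 stood at -0.76 (-1.48 to -0.03). Aurkb stood at -0.996 (-2.10 to 0.10). Every Glut1 tg Tnnt2high library lay below both WT Tnnt2high libraries for Ect2, Kif23 and Aurkb, which was so for 6.12% of all tested genes. Cep55 had 11.8 ± 0.626 CPM (SD, n = 4) in Glut1 tg Tnnt2high and 10.7 ± 1.85 CPM (SD, n = 2) in WT Tnnt2high libraries, a log2 fold change of 0.14 (-0.43 to 0.71). In hearts without Ddx3y the median over the 10 genes was -0.60, with positive values for Cep55 and Cit and none called. The comparisons share libraries, so the 8 rises within Glut1 tg hearts and these negative values have the Glut1 tg Tnnt2high libraries in common.

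To set cytokinesis beside nuclear division, the mean log2 CPM of 44 genes of the kinetochore, spindle, checkpoint and chromosome condensation was subtracted from that of the 10 cytokinesis genes in every library. The difference was 0.21, 0.19, 0.14 and 0.15 in Glut1 tg Tnnt2low libraries, against -0.13, -0.36, 0.18 and -0.05 in Glut1 tg Tnnt2high libraries. In WT libraries it was -0.04 and 0.09 in Tnnt2low and 0.02 and 0.09 in Tnnt2high cells. The Glut1 tg groups overlapped, since Tnnt2high replicate 3 lay above Tnnt2low replicates 3 and 4. The level of this difference depended on the genes in the lists: without Cit, Mki67 and Top2a its group means were 0.43 in Glut1 tg Tnnt2low against 0.10 in Glut1 tg Tnnt2high libraries, and 0.30 in WT Tnnt2low against 0.27 in WT Tnnt2high libraries, where the full lists gave 0.17 against -0.09 and 0.02 against 0.06. In Glut1 tg hearts the Tnnt2low mean stood above the Tnnt2high mean with either choice of genes, while in WT hearts the order turned. With the full lists the range over all 12 libraries was -0.36 to 0.21, small beside the range of the cytokinesis mean itself, 3.72 to 5.64 on the log2 scale. Over the 12 libraries both gene sets thus rose and fell broadly together, but not within Glut1 tg Tnnt2high. There replicate 3 had the highest cytokinesis mean (4.17) with a nuclear division mean of 3.99, and replicate 2 the lowest (3.72) with 4.08. The nuclear division mean ran from 4.13 to 5.44 in Glut1 tg Tnnt2low and from 3.83 to 4.27 in Glut1 tg Tnnt2high libraries. In the Glut1 tg comparison 16 of the 44 nuclear division genes rose and none fell, where 8.42% of all tested genes rose. Their median log2 fold change was 0.98, against 1.18 for the cytokinesis genes.

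**Figure D4:**
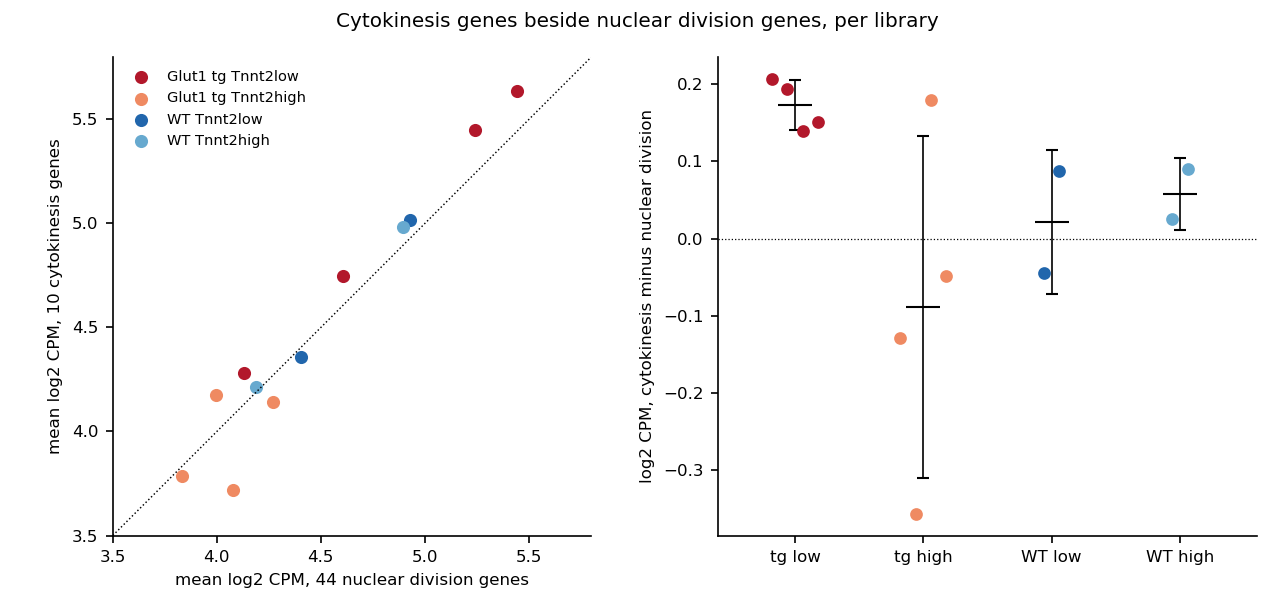
Left, mean log2 CPM of the 10 cytokinesis genes (vertical axis) against that of 44 nuclear division genes (horizontal axis), 1 point per library, with the dotted line where both are equal. Right, the difference of the 2 means per library with mean ± SD by group. The points lie along the line over the 12 libraries, but not within Glut1 tg Tnnt2high, where the order of the 2 means differs. The difference runs from -0.36 to 0.21 with these lists, while its level moves when Cit, Mki67 and Top2a are left out (0.43 in place of 0.17 in Glut1 tg Tnnt2low).

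Single members departed from the nuclear division mean by different amounts. Relative to that mean, Ect2 stood at -0.17 in Glut1 tg Tnnt2low against -0.88 in Glut1 tg Tnnt2high libraries, and Racgap1 at 1.24 against 0.80. Cep55 stood at -0.53 against -0.45, Cit at -0.71 against -0.68 and Aurkb at -1.47 against -1.39, differences between the populations that lay within the SD of either group. In WT Tnnt2low against WT Tnnt2high libraries (n = 2 each) Ect2 stood at -0.34 against -0.15 and Racgap1 at 0.94 against 0.93. There Cep55 stood at -0.74 against -1.09, Cit at -1.13 against -0.55 and Aurkb at -1.48 against -0.85. These group means on the log2 scale are a description with no test.

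The partners of the 10 genes were examined in the same comparison of Glut1 tg Tnnt2low with Glut1 tg Tnnt2high cells, in which 8.42% of all tested genes were called higher and 8.33% lower. Of the 3 other subunits of the chromosomal passenger complex 1 rose, Incenp, the scaffold of the complex, at 52.7 ± 19.1 against 23.6 ± 1.998 CPM (SD, n = 4 each, log2 fold change 1.16, SE 0.23, adjusted p = 0.00457). Of 14 other central spindle and midbody genes 7 rose and none fell. Kif20b, a kinesin that acts late in cytokinesis, had a log2 fold change of 1.49 (SE 0.24), Kifc1, a minus-end-directed kinesin, 1.76 (SE 0.30), and Arhgap11a, a GTPase-activating protein for RhoA, 1.68 (SE 0.37). Ckap2l, a spindle protein, stood at 50.9 ± 21.5 against 18.4 ± 1.35 CPM. In WT hearts none of these lists had a gene called. Of the 14 central spindle and midbody genes 8 were positive and 6 negative there, with a median log2 fold change of 0.03. Incenp and Kifc1 had -0.20 and -0.54, while Kif20b, Arhgap11a and Ckap2l had 0.37, 0.61 and 0.67.

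Of 17 genes of RhoA signalling and the contractile ring that are expressed in many cell types 3 rose and 6 fell, with 11 of the 17 negative and a median log2 fold change of -0.42 against -0.01 over all tested genes. Myh10, the non-muscle myosin heavy chain that drives furrowing in cardiomyocytes, rose to 370.0 ± 33.4 CPM in Tnnt2low, against 232 ± 29.5 CPM in Tnnt2high libraries (log2 fold change 0.67, SE 0.12), and the RhoA-dependent kinases Rock1 and Rock2 rose by log2 fold changes of 0.50 (SE 0.14) and 0.51 (SE 0.12). Those that fell included Rhoa, the gene of RhoA itself, with a log2 fold change of -0.43, and Cfl1 (cofilin) with -0.42. Pfn1 (profilin) had -0.63, Myl12a (a myosin light chain) -0.74, Rhoc (a GTPase related to RhoA) -0.53 and Actb (beta-actin) -0.71. The 3 that rose have transcripts of 6440 to 7791 bases, and Pfn1, Myl12a, Rhoc and Actb have transcripts of 1202 to 1997 bases. This is the direction of the length trend given above, whose part was not tested. Of 10 septins, GTP-binding filament proteins of the furrow, 1 rose, Sept8, at 44.6 ± 3.21 against 32.7 ± 2.96 CPM.

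Of 21 genes of abscission and the ESCRT machinery, 1 rose and 5 fell. Zfyve26, a midbody protein, rose with a log2 fold change of 0.80 (SE 0.20). The ESCRT-III subunits Chmp2a, Chmp2b and Chmp5 fell by 0.75, 0.73 and 0.73 on the log2 scale, and Vps37a of ESCRT-I fell by 0.68. Transcripts of these 3 Chmp genes are 949 to 1872 bases long, while Vps37a has 6379 bases. ESCRT proteins also serve membrane traffic outside division.

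Beyond cytokinesis, nuclear division genes with the smallest p were Aspm, a spindle pole protein (log2 fold change 1.61, SE 0.28), Cenpe, a kinetochore kinesin (1.53, SE 0.27), Mki67, the proliferation marker Ki-67 (1.94, SE 0.35), and Bub1b, a checkpoint kinase (1.03, SE 0.23). Transcripts of Aspm, Cenpe and Mki67 are 7910 to 10061 bases long and that of Bub1b 3668 bases, and the part of the length trend was not tested. Of 30 S-phase genes 2 rose and none fell, a count near the 8.42% of all tested genes called higher. The 2 were Rrm2 and Rrm1, the subunits of ribonucleotide reductase, with log2 fold changes of 0.93 (SE 0.27) and 0.53 (SE 0.17). The median of the S-phase list was -0.09. Among 20 regulators of mitotic genes 3 rose and 1 fell. Foxm1, the activator of G2 and M genes, stood at 52.3 ± 21.5 against 15.1 ± 6.79 CPM (log2 fold change 1.79, SE 0.38), E2f8, an E2F family repressor, at 1.29 (SE 0.27) and Lin54, the CHR-binding subunit of MuvB, at 0.93 (SE 0.17). Rbbp4, a chromatin protein that is also a MuvB subunit, fell with a log2 fold change of -0.50.

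Over the 12 libraries the 10 genes followed one another to different degrees. The Pearson correlation of each gene's log2 CPM with the mean of the other 9 was 0.98 for Prc1 and Anln, 0.97 for Racgap1, 0.95 for Kif23, 0.94 for Kif14 and 0.92 for Ect2, and lower for Kif20a (0.81), Cep55 (0.77), Aurkb (0.69) and Cit (0.65). The 5 other genes whose log2 CPM was most like the mean of the 10 were Top2a (topoisomerase II alpha, r = 0.979), Rad21 (a cohesin subunit, 0.976), Mki67 (0.973), Cenpf (a kinetochore protein, 0.971) and Iqgap3 (an IQGAP scaffold protein, 0.967). These are descriptions over 12 libraries that share hearts, groups and library composition.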

How the data were processed

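RNA of cardiomyocytes was sequenced in 12 libraries. The authors made the deposited counts, whole reads per gene, from single-end 50 bp Illumina reads that they checked with FastQC, trimmed below a Phred score of 20, mapped to mm10 with HISAT2 at default settings and counted with HTSeq over the union of exons. The sources used here do not give versions or the strand setting. The sample records describe heart tissue, the paper sorted cells, and the paper was followed. The 5 totals that name no gene stayed out of library sizes and tests (reads outside exons were 28.8% to 46.5% of all records).

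Counts were tested in R 4.3.3 with edgeR 4.0.16 (TMM, filterByExpr on 4 groups, quasi-likelihood test) in 1 fit of 12 libraries without a block, called at an adjusted p under 0.05 with no fold minimum. Log2 CPM used a prior count of 2. The biological coefficient of variation was 0.314. The script was tested on simulated data. Replicates differed by a chi-square per gene of at least 14.3, so none was counted as a duplicate. The members and gene lists were chosen with earlier results of these data known. Genes named are the 10 members, per list up to 4 called genes in each direction with the smallest p in Glut1 tg Tnnt2low against Tnnt2high cells, the 5 genes most like the members' mean, Tnnt2 and Slc2a1. Genes that overlap a member (Cdc23, Rccd1), Ddx3y, Rhoa, Cfl1 and single cell type markers were named in addition, after their values were seen. Pairing comes from the labels, which give the same heart for both populations. In Glut1 tg hearts deviations of same-numbered libraries correlated at 0.107 to 0.226, and those of differently numbered libraries at -0.151 to 0.12. In WT the values were 0.271 and -0.271, which have to be equal in size with 2 libraries per group.

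Alternatives were size factors of DESeq2, DESeq2 1.42.0, no filter, robust fitting, only the groups compared, each library left out, an offset for length and GC content (loess, span 0.3, over 12191 genes), the replicate block with and without it, and limma 3.58.1 (voom) with the heart as a random effect. Chosen after seeing the data were both libraries of a heart left out, reads outside exons as a covariate, hearts without Ddx3y, and thinning to 4065306 reads. The cytokinesis mean relative to nuclear division was also taken without Cit, Mki67 and Top2a. Loci and lengths came from GENCODE vM21 (98.53% of genes matched), promoter sequences from RefSeq. Figures were drawn with matplotlib 3.10.9.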

Additional observations from a re-analysis of the deposited data

Results flagged for a closer look

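In 24 checks of groups of 4 libraries for a library that stands apart, 1 was positive, about what chance gives at 1 in 20. Ect2 in Glut1 tg Tnnt2high replicate 1 was at 13.9 CPM, while the other 3 libraries of that group lay between 7.19 and 7.59 CPM. Without this library the log2 fold change of Ect2 in Glut1 tg Tnnt2low against Tnnt2high cells was 1.89, and it was called with and without it.

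Ect2 was higher in the Tnnt2low library of all 4 Glut1 tg hearts and lower in that of both WT pairs, and its population difference in Glut1 tg exceeded that in WT by 1.67 on the log2 scale (SE 0.59, adjusted p = 0.961 for the interaction in edgeR, unadjusted p = 0.0126). The interaction test did not pass the threshold, and the WT differences of -0.06 and -0.08 were close to 0.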

How the results depend on the processing

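All 10 genes had a positive log2 fold change in Glut1 tg Tnnt2low against Tnnt2high cells under each alternative run, while how many were called changed. There, the offset for length and GC content gave 3 of the 10 genes and 289 genes in all, the replicate block with that offset 644 genes, and reads outside exons as a covariate 0 of the 10 and 0 in all. The replicate block alone called the same 8 of the 10 genes, while robust fitting called 6 and no filter and thinning 7 each. Leaving out a Glut1 tg library, or both libraries of a Glut1 tg heart, gave 0 to 9 of the 10 genes and 399 to 2025 genes in all, and leaving out a WT library gave 7 to 8 of the 10 and 1934 to 2127 in all. None of the 10 genes was called in the other comparisons under any alternative. Over all genes, WT Tnnt2low against WT Tnnt2high cells gave 6 calls with no filter, 5 with only the groups compared, 2 with the replicate block, 3 with DESeq2 and 0 to 1 with libraries left out. Glut1 tg against WT Tnnt2low cells gave 10 calls with no filter, 6 with DESeq2, and 0 with robust fitting, with the covariate and in hearts without Ddx3y, and 0 to 1 with libraries left out. Glut1 tg against WT Tnnt2high cells gave 13 with no filter, 3 with only the groups compared, 5 with DESeq2 and 1 in hearts without Ddx3y. The interaction gave 9 with no filter, 5 with DESeq2 and 0 to 1 with libraries left out. Directions of uncalled values turned between WT populations with the covariate for Ect2 (0.12), Cit (0.0053) and Aurkb (0.034), and with thinning for Ect2 (0.013) and Racgap1 (-0.053). For Cit in Tnnt2high cells, the value was 0.034 in hearts without Ddx3y. With libraries left out, the log2 fold change between WT populations ran from -0.39 to 0.79 for Anln, -0.54 to 0.41 for Ect2, -0.25 to 0.58 for Racgap1, -0.39 to 0.17 for Kif23, -0.26 to 0.995 for Kif20a, -0.22 to 1.67 for Kif14, -0.33 to 1.06 for Prc1 and -1.13 to 0.059 for Aurkb. That between genotypes ran from -0.082 to 0.85 for Kif14 and -0.18 to 1.004 for Aurkb in Tnnt2low cells, and from -0.92 to 0.32 for Kif20a, -1.53 to 0.36 for Kif14, -1.28 to 0.10 for Prc1 and -0.028 to 0.34 for Cep55 in Tnnt2high cells. The interaction of Kif14 ran from -0.046 to 1.85. Without Cit, Mki67 and Top2a, the cytokinesis mean relative to nuclear division was 0.43 in Glut1 tg Tnnt2low, 0.10 in Glut1 tg Tnnt2high, 0.30 in WT Tnnt2low and 0.27 in WT Tnnt2high libraries. Where a lone library was left in a WT group, it was assumed to vary like the other groups. Apart from the smaller number of libraries, the cause of these changes was not tested. Counts of 12 to 157 reads limit the precision of Aurkb. The covariate, thinning, the hearts without Ddx3y and the leaving out of whole hearts were chosen after seeing the data.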
